A study of Homo sapiens with 4 samples.

Results

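The mitosis genes are 47 human genes, taken by symbol, that encode the machinery of cell division: cyclin and CDK1 subunits with the kinases and phosphatases around them, spindle checkpoint proteins, anaphase regulators, centromere and kinetochore proteins, kinesins, spindle and cytokinesis proteins, and condensin. All 47 symbols were found once among the 65217 genes of the count table, and all 47 were among the 17075 genes with enough counts to be tested. The cells were SEM, an established line of B-cell precursor acute lymphoblastic leukaemia with the t(4;11) translocation that fuses KMT2A to AFF1 (MLL-AF4). Both groups were the same line after transplantation into immunodeficient mice aged 6 to 10 weeks. The brain group held 2 libraries of cells recovered from the leptomeninges, per the labels' protocol and titles, and the spleen group held 2 libraries of cells recovered from the spleen. Each library combined the RNA of 5 mice, and replicates 1 and 2 were independent occasions of the whole experiment. Neither the strain of the mice nor the measured purity of the cells was stated in the sources used here. A single cell line in a host without a full immune system was studied, and pooling leaves no view of differences between mice.

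A cell enters mitosis when cyclin B bound to CDK1 is switched on by CDC25 phosphatases. Chromosomes are then compacted by condensin and topoisomerase, captured by kinetochores on a spindle shaped by kinesins, and held under the spindle checkpoint until the anaphase-promoting complex with CDC20 releases them. Transcripts of this machinery accumulate together late in the cell cycle, which makes their summed level a usual readout of how much of a population is dividing. In bulk RNA, fewer dividing cells and less RNA per dividing cell cannot be told apart.

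The libraries held between 26266136 and 36913437 counts assigned to human genes. Levels are in CPM (counts per 1000000, with library sizes adjusted by TMM) unless TPM, which is also scaled by transcript length, is named. The lowest count of any mitosis gene in any library was 385, for CENPE. Spleen replicate 2 stood apart: spleen replicates 1 and 2 differed by a mean chi-square per gene of 67.3, brain replicates 1 and 2 by 9.37, and 8.17% of all tested genes were lower in spleen replicate 2 than in spleen replicate 1 by over 1 on the log2 scale. Results are therefore given with and without it. Mouse transcripts took 2.24% and 1.45% of the counts of brain replicates 1 and 2 and 4.31% and 6.32% of those of spleen replicates 1 and 2, and their part in the results was not tested. The B-lineage markers CD79A, CD79B, PAX5, EBF1, VPREB1 and DNTT were present in every library, from 26.5 CPM, for CD79B in spleen replicate 1, to 901 CPM, for PAX5 in brain replicate 1. Of human markers of other cells, 6 neural and glial genes summed to at most 0.425 CPM in any library with SNAP25 at 0, 5 T-cell genes summed to at most 0.468 CPM with CD3D at 0, and 5 erythroid genes to at most 0.243 CPM. The 6 myeloid genes summed to 36.5 and 29.2 CPM in brain and 38.4 and 36.5 CPM in spleen, with FCGR3A at 0.

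The level of most mitosis genes was lower in the brain libraries than in spleen replicate 1, while spleen replicate 2 was high for one set of them and low for another. No mitosis gene passed the test over all genes with all 4 libraries (edgeR's quasi-likelihood test, Benjamini-Hochberg adjusted p under 0.05): 0 of 47 were lower in brain, where 0.387% of all tested genes were, and 0 of 47 were higher, where 1.63% were. The smallest adjusted p was 0.0662, for BIRC5. At an unadjusted p under 0.05, 17 of 47 were lower in brain and 0 higher, beside 9.94% and 10.7% of all genes. DESeq2 called 5 of 47 lower (CDC25B, UBE2C, AURKB, BIRC5 and CENPA) and 0 higher, beside 2.77% and 3.61% of the 14751 genes it gave an adjusted p. The median log2 fold change of brain over spleen was -0.18 over the mitosis genes, with 30 negative and 17 positive values, and 0.036 over all tested genes.

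Both brain libraries lay below both spleen libraries for 24 of the 47 genes, a pattern shown by 26.7% of all tested genes, and both brain libraries lay above both spleen libraries for 0 of 47, a pattern shown by 30.2% of all genes. For the other 23 the groups overlapped. Within occasion 1, brain replicate 1 was below spleen replicate 1 for 47 of 47 genes, with a median log2 ratio of -0.37 and a range from -0.65 to -0.0051. Within occasion 2, brain replicate 2 was below spleen replicate 2 for 24 of 47 genes, with a median of -0.068 and a range from -0.91 to 2.69. The occasions thus gave one direction in the first and a split set in the second. The replicate number was also fitted as a block, with same-numbered libraries taken to share an occasion. That fit called 5 genes lower in brain (FOXM1, CDC25B, UBE2C, AURKB and BIRC5) and 0 higher, beside 3.37% and 7.48% of all genes.

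Leaving out a spleen library moved these counts far. Without spleen replicate 2, 27 of 47 were called lower in brain and 0 higher, beside 7.63% and 9.64% of all genes, and 45 of 47 log2 fold changes were negative with a median of -0.30. Without spleen replicate 1, 22 of 47 were called lower and 17 higher, beside 19% and 18.9% of all genes, with a median of -0.14. Each of these fits compared the brain pair with a single spleen library, which was assumed to vary as little as the brain libraries do, so the p-values do not measure the spread between spleen samples. The brain libraries lay close together: the largest difference between brain replicates was 1.30-fold, for MKI67, and brain replicate 2 was below brain replicate 1 by over 1 on the log2 scale for 0 of 47 genes, beside 1.14% of all genes. Both brain libraries were below spleen replicate 1 for 44 of 47 genes, beside 40.4% of all genes, the exceptions being MKI67, TOP2A and INCENP.

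**Figure D1:**
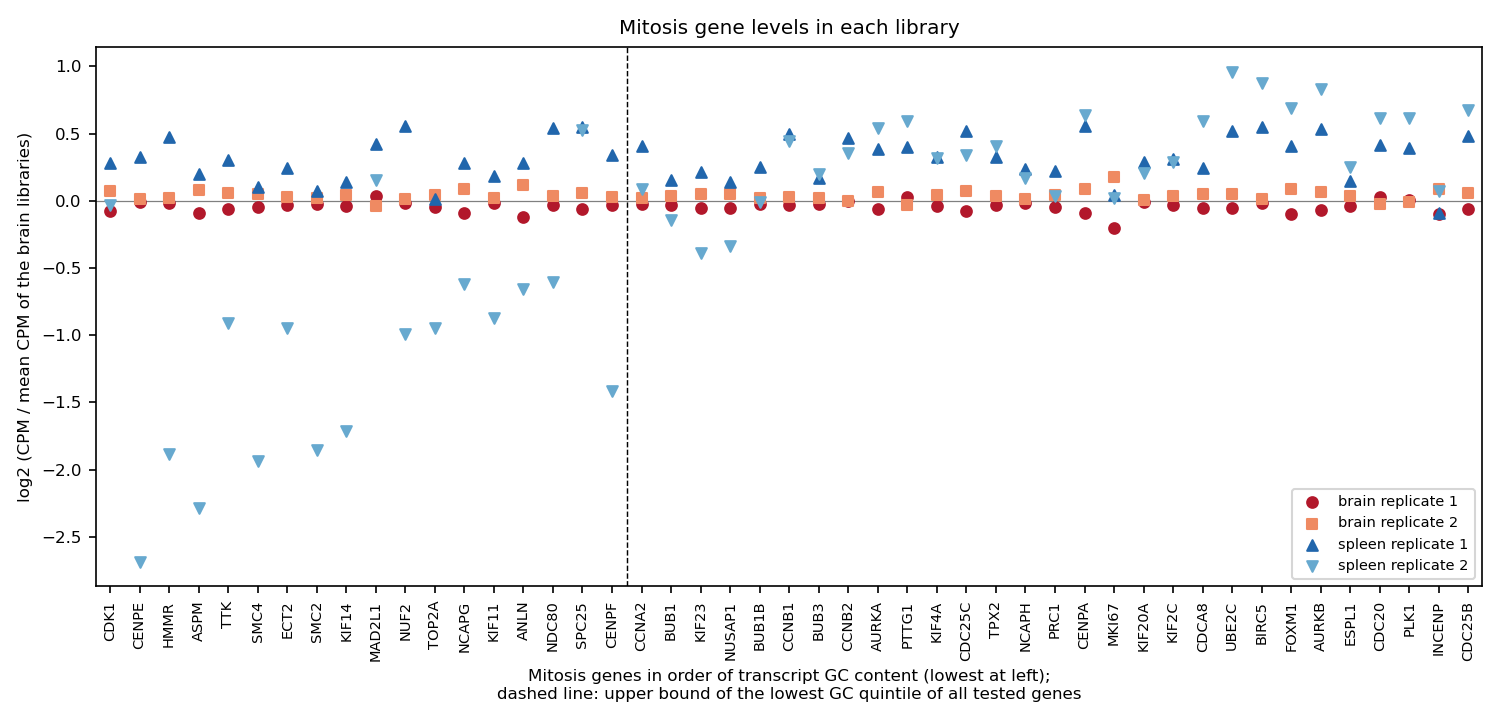
Level of each of the 47 mitosis genes in the 4 libraries, as log2 of CPM over the mean CPM of the brain libraries (y axis), with genes ordered on the x axis by the GC content of their transcripts and a dashed line at the upper bound of the lowest GC quintile of all tested genes. Spleen replicate 1 lies above 0 for most genes, and spleen replicate 2 lies far below 0 for many genes left of the dashed line (CENPE, HMMR, ASPM, SMC4) and above 0 for most genes right of it (UBE2C, BIRC5, AURKB).

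The place of spleen replicate 2 followed the base composition of the transcripts. All tested genes with a known transcript were ordered by transcript GC content, averaged over a gene's transcripts by their counts, and cut into quintiles, a split chosen after the data were seen. The lowest quintile, up to 41.1% GC, held 18 mitosis genes: TOP2A, CDK1, MAD2L1, TTK, CENPE, CENPF, NDC80, NUF2, SPC25, KIF11, KIF14, HMMR, ASPM, ANLN, ECT2, NCAPG, SMC2 and SMC4. In 12 of these 18, spleen replicate 2 was below spleen replicate 1 by over 1 on the log2 scale, as in 22.5% of the other genes of that quintile. Their median log2 ratio of spleen replicate 2 over spleen replicate 1 was -1.20, against -0.50 in the other genes of the quintile. In the higher quintiles, 0 of 29 mitosis genes were that low, and their median ratio was 0.023. No mitosis gene was higher in spleen replicate 2 by over 1 on the log2 scale (0 of 47, beside 1.34% of all genes). The ratio of the spleen libraries was not tested, since it compares single libraries.

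The middle 90 bases of the coding sequence show the difference in composition for 6 genes from either side of this range. The sequences are from GENCODE 44 transcripts on GRCh38, 5′ to 3′, with G and C in capitals. CENPE (chr4:103105349-103198445), SMC4 (chr3:160399274-160434954) and KIF14 (chr1:200551497-200620751) are of the lowest quintile, with whole-transcript GC contents of 35.3%, 36.6% and 37.6%. UBE2C (chr20:45812576-45816957), AURKB (chr17:8204733-8210600) and CDC25B (chr20:3786772-3806121) are of higher quintiles, with 51.0%, 55.7% and 58.2%.
CENPE coding bases 3826-3915 of 7743: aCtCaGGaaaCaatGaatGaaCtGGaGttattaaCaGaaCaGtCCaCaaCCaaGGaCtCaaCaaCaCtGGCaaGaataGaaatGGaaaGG
SMC4 coding bases 1888-1977 of 3867: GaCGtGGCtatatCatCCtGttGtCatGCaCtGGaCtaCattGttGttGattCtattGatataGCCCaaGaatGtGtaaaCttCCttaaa
KIF14 coding bases 2428-2517 of 4947: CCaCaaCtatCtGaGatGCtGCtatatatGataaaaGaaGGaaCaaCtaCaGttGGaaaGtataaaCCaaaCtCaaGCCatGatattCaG
UBE2C coding bases 226-315 of 540: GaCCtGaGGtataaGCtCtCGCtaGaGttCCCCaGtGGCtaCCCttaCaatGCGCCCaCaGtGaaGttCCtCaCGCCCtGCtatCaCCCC
AURKB coding bases 472-561 of 1035: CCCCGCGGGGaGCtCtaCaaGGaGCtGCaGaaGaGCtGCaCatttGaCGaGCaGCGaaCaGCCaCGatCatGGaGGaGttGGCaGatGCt
CDC25B coding bases 730-819 of 1551: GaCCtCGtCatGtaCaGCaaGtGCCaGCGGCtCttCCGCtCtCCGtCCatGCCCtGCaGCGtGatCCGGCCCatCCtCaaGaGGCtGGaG
The first 3 stretches are 40.0%, 37.8% and 35.6% G and C, and the last 3 are 56.7%, 58.9% and 63.3%. The level of the first 3 genes in spleen replicate 2 was 8.06-fold, 4.11-fold and 3.60-fold below that in spleen replicate 1. The last 3 were higher in spleen replicate 2 than in spleen replicate 1. The genes shown are examples, and the same stretch of other mitosis genes did not always follow this order. That of CENPF was 54.4% G and C, though CENPF was 3.38-fold lower in spleen replicate 2. Those of CDCA8, PTTG1 and AURKA were 40.0%, 38.9% and 40.0%, though these genes were higher in spleen replicate 2.

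Across the 47 genes, the log2 ratio of spleen replicate 2 over spleen replicate 1 had a Spearman correlation of 0.89 with transcript GC content and of -0.91 with the percentage of A, and Pearson correlations of 0.75 and -0.86. With the percentage of T the Spearman correlation was -0.48. Over all 12861 tested genes with a coding transcript the Spearman values were 0.63, -0.65 and -0.47. These are descriptions across genes that share 2 libraries, and genes are not independent replicates. The brain libraries showed no such order: the ratio of brain replicate 2 over brain replicate 1 had a Spearman correlation of 0.076 with GC content over the mitosis genes. In the comparison of the brain mean with spleen replicate 1, the correlation with GC content was -0.19 and that with transcript length was 0.65, beside 0.34 with length over all coding genes, so that short transcripts such as UBE2C lay lower in brain than long ones such as MKI67. The part of length or composition in the differences between brain and spleen was not tested beyond a refit with both trends removed.

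**Figure D2:**
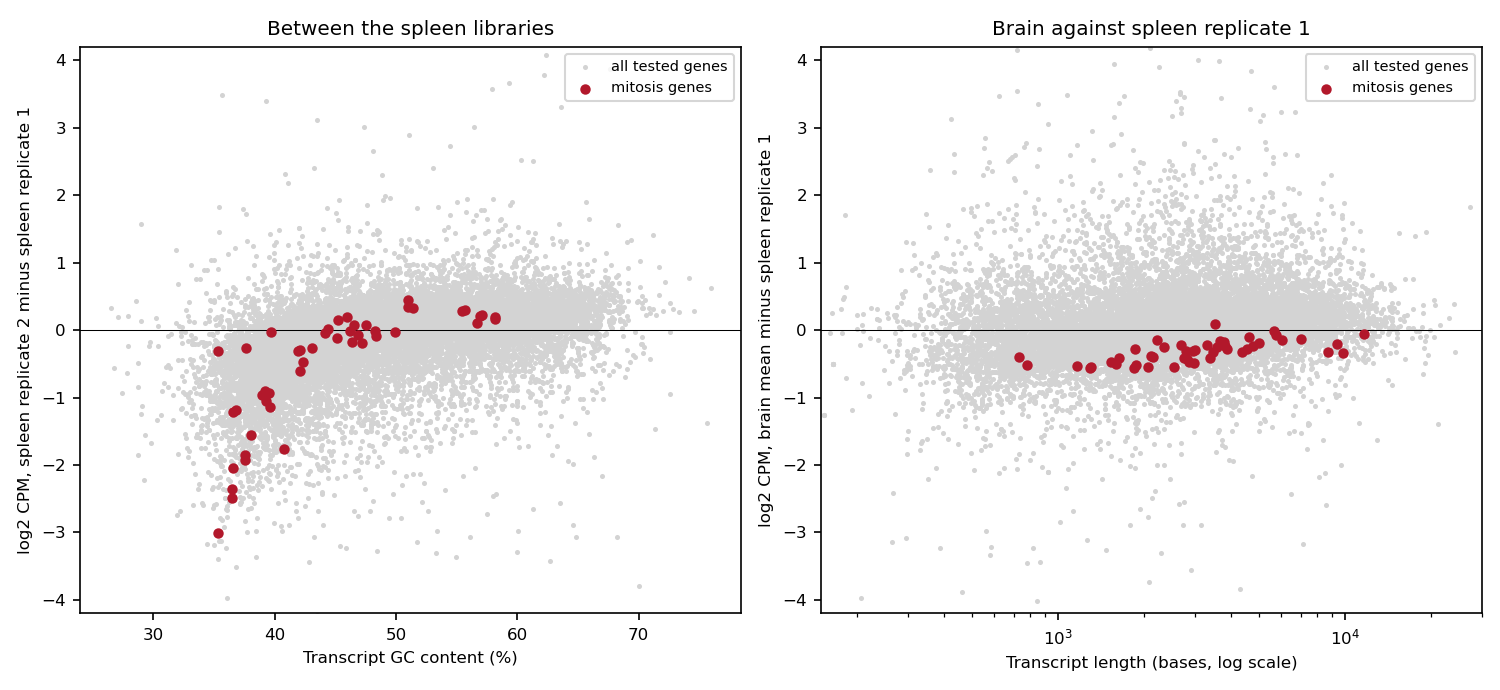
Left, log2 CPM of spleen replicate 2 minus spleen replicate 1 against transcript GC content in percent; right, log2 CPM of the brain mean minus spleen replicate 1 against transcript length in bases on a log axis. Red points are the 47 mitosis genes and grey points all tested genes with a transcript match, with 11 tested genes (left) and 24 (right) beyond the y axis limits; red points lie below 0 at low GC on the left, and nearly all lie below 0 on the right.

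Summed over the 47 genes, the level was 7454 and 7951 CPM in brain and 9132 and 6720 CPM in spleen. Spleen replicate 1 was the highest library and spleen replicate 2 the lowest, so the groups overlapped. The ratio of the brain mean to the spleen mean was 0.972 in CPM and 0.952 in TPM, and within occasions it was 0.816 and 1.18. The smallest two-sided p that an exact permutation of these 4 libraries allows is 0.333. The 18 genes of the lowest GC quintile summed to 3537 and 3747 CPM in brain and 4194 and 1747 CPM in spleen. The other 29 genes summed to 3917 and 4204 CPM in brain and 4937 and 4974 CPM in spleen. For these both brain libraries lay below both spleen libraries, with a ratio of 0.819 in CPM and 0.869 in TPM. The split was chosen after the data were seen. It sets aside all 12 mitosis genes that were lower in spleen replicate 2 than in spleen replicate 1 by over 1 on the log2 scale. The separation of the 29 genes therefore follows in part from the split and is a description only. Of these 29 genes, 26 had a negative log2 fold change with all libraries and 28 without spleen replicate 2, the medians being -0.37 and -0.32. Of the 18 low-GC genes, 4 had a negative log2 fold change with all libraries and 17 without spleen replicate 2, and the median moved from 0.24 to -0.27. Without spleen replicate 1, the log2 fold changes of the 18 ran from -0.58, for SPC25, to 2.63, for CENPE.

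**Figure D3:**
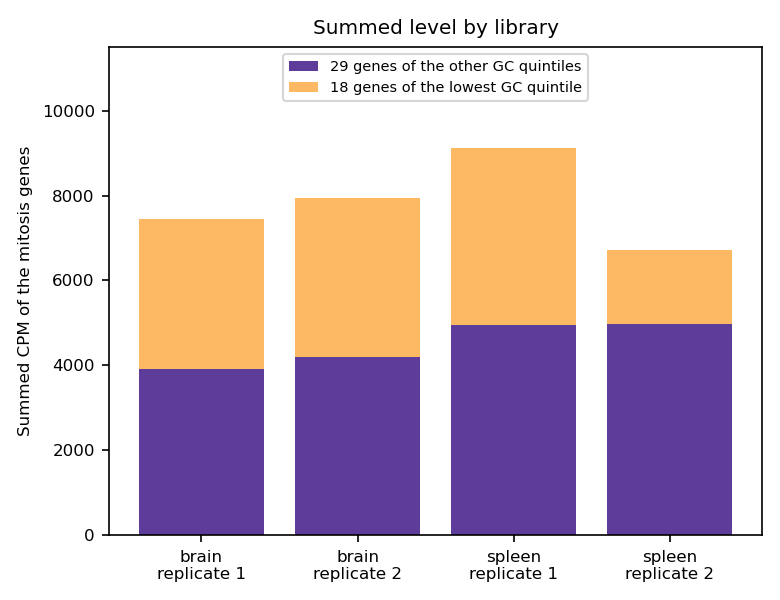
Summed CPM of the mitosis genes in each of the 4 libraries (y axis, from 0), split into the 18 genes of the lowest GC quintile (orange) and the 29 genes of the other quintiles (purple). The purple part is 3917 and 4204 CPM in the brain libraries and 4937 and 4974 CPM in the spleen libraries, while the orange part is 1747 CPM in spleen replicate 2 and at least 3537 CPM in the other libraries.

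The genes that start mitosis were uniform in sign. All 8 cyclin, CDK1 and entry kinase genes had a negative log2 fold change, with a median of -0.45. None was called with all libraries, and CDC25B was called lower with the block, beside 3.37% of all genes. The median was -0.42 without spleen replicate 2, with all 8 negative, and -0.45 without spleen replicate 1. CCNB1, the cyclin B that activates CDK1, had 136 and 142 CPM in brain replicates 1 and 2 and 196 and 189.5 CPM in spleen replicates 1 and 2. CCNB2, the second B-type cyclin of dividing cells, had 102 and 101 CPM in the brain libraries and 140.2 and 129.6 CPM in the spleen libraries. In both cyclins the brain libraries lay below the spleen libraries without overlap, with log2 fold changes of -0.47 ± 0.13 (SE, adjusted p = 0.111) and -0.41 ± 0.14 (adjusted p = 0.152). CDK1, the kinase itself, had 259 and 208 CPM in spleen replicates 1 and 2, against 201 and 224 CPM in the brain libraries. The groups overlapped for CDK1, with a log2 fold change of -0.14 ± 0.16 and an adjusted p of 0.654, and it was -0.27 (adjusted p = 0.0416) without spleen replicate 2. CCNA2, the cyclin A that acts before cyclin B, had 174 and 179.8 CPM in the brain libraries and 235 and 189 CPM in the spleen libraries, with no overlap, and a log2 fold change of -0.26 ± 0.15 (adjusted p = 0.372). For CCNB1, CCNB2 and CCNA2 the log2 fold changes were -0.48, -0.45 and -0.40 (CCNB1, CCNB2 and CCNA2 called lower) without spleen replicate 2 and -0.50, -0.40 and -0.14 (CCNB1 and CCNB2 called lower) without spleen replicate 1. For CDK1 the value without spleen replicate 1 was -0.021 (adjusted p = 0.884).

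CDC25B, the phosphatase that removes the inhibitory phosphates from CDK1 at mitotic entry, had 76.5 and 83.4 CPM in brain replicates 1 and 2 and 111 and 128 CPM in spleen replicates 1 and 2. Both brain libraries were lower than both spleen libraries. Its log2 fold change was -0.58 ± 0.15, with an adjusted p of 0.0934, or 0.0392 with the replicate block. PLK1, a kinase that acts from mitotic entry to cytokinesis, had 114 and 112 CPM in the brain libraries and 148 and 173 CPM in the spleen libraries, again without overlap, and a log2 fold change of -0.51 ± 0.14 (adjusted p = 0.114). AURKA, the kinase of centrosomes and spindle poles, had 61.6 and 68.7 CPM in spleen replicates 1 and 2, against 45.2 and 49.3 CPM in the brain libraries. Its log2 fold change was -0.46 ± 0.15 (adjusted p = 0.151), and the brain libraries were the lower ones. For CDC25B, PLK1 and AURKA the log2 fold changes were -0.47, -0.38 and -0.37 (CDC25B, PLK1 and AURKA called lower) without spleen replicate 2 and -0.73, -0.67 and -0.59 (CDC25B, PLK1 and AURKA called lower) without spleen replicate 1.

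Genes of anaphase onset and of the chromosomal passenger complex held the 3 lowest fold changes with all libraries (UBE2C, BIRC5 and AURKB), while CENPA, NUF2 and SPC25 were the lowest without spleen replicate 2. The 4 anaphase genes had a median log2 fold change of -0.51, all negative. UBE2C, the ubiquitin-conjugating enzyme that works with the anaphase-promoting complex, had 87.8 and 94.3 CPM in brain replicates 1 and 2 and 130.2 and 177 CPM in spleen replicates 1 and 2. Its brain libraries were the lowest and spleen replicate 2 the highest, giving -0.76 ± 0.18 on the log2 scale with an adjusted p of 0.0765, or 0.00426 with the block. CDC20, the activator of that complex, had 171 and 165 CPM in the brain libraries and 224 and 258 CPM in the spleen libraries, and PTTG1, the securin that holds separase in check, had 120.0 and 115 CPM in the brain libraries and 155 and 177 CPM in the spleen libraries. Neither gene's groups overlapped, and the log2 fold changes were -0.52 ± 0.14 (adjusted p = 0.105) and -0.50 ± 0.14 (adjusted p = 0.113). ESPL1, which encodes separase, the protease that cuts cohesin, had 83.0 and 89.4 CPM in spleen replicates 1 and 2, against 73.2 and 77.0 CPM in the brain libraries. Its groups did not overlap either, with a log2 fold change of -0.20 ± 0.14 (adjusted p = 0.459). For UBE2C, CDC20, PTTG1 and ESPL1 the log2 fold changes were -0.50, -0.40, -0.39 and -0.13 (UBE2C, CDC20 and PTTG1 called lower) without spleen replicate 2 and -1.01, -0.67, -0.64 and -0.30 (UBE2C, CDC20, PTTG1 and ESPL1 called lower) without spleen replicate 1.

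Of the chromosomal passenger complex, the kinase module that corrects faulty attachments and directs cytokinesis, 3 of 4 genes had negative fold changes and the median was -0.56. BIRC5, which encodes survivin, had 107 and 109 CPM in brain replicates 1 and 2 and 157 and 198 CPM in spleen replicates 1 and 2. Both brain libraries were well below both spleen libraries, with a log2 fold change of -0.72 ± 0.16 (adjusted p = 0.0662, or 0.00609 with the block). AURKB, the kinase of the complex, had 86.0 and 94.4 CPM in the brain libraries and 130.3 and 160.3 CPM in the spleen libraries, with no overlap and a log2 fold change of -0.69 ± 0.16 (adjusted p = 0.0731, or 0.0101 with the block). INCENP, the scaffold that binds the kinase, had 101 and 113 CPM in spleen replicates 1 and 2, against 100.3 and 114 CPM in the brain libraries. These values interleaved, and the log2 fold change was 0.0078 ± 0.15 (adjusted p = 0.983). For BIRC5, AURKB and INCENP the log2 fold changes were -0.53, -0.52 and 0.10 (BIRC5 and AURKB called lower) without spleen replicate 2 and -0.93, -0.88 and -0.12 (BIRC5 and AURKB called lower) without spleen replicate 1. Whether INCENP differs from AURKB and BIRC5 in its response was not tested.

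Proliferation labels and their regulator did not share a pattern. FOXM1, the transcription factor that drives many of these genes, had 145 and 166 CPM in brain replicates 1 and 2 and 206 and 251 CPM in spleen replicates 1 and 2. The brain libraries were lower without overlap, with a log2 fold change of -0.55 ± 0.16 and an adjusted p of 0.113, or 0.0470 with the block. MKI67, which encodes the Ki-67 protein used to label dividing cells, had 409.6 and 532 CPM in the brain libraries and 484 and 479 CPM in the spleen libraries. Brain replicates 1 and 2 were its lowest and highest libraries, and the log2 fold change was -0.032 ± 0.16 (adjusted p = 0.930). For FOXM1 and MKI67 the log2 fold changes were -0.39 and -0.027 (FOXM1 called lower) without spleen replicate 2 and -0.74 and -0.073 (FOXM1 called lower) without spleen replicate 1. TOP2A, the topoisomerase that untangles chromosomes, had 744 and 383 CPM in spleen replicates 1 and 2, against 716 and 763 CPM in the brain libraries. Spleen replicate 2 alone was low, so that the log2 fold change was 0.39 ± 0.34 (adjusted p = 0.561) with all libraries, 0.0032 (adjusted p = 0.989) without spleen replicate 2 and 0.90 (adjusted p = 9.1e-08) without spleen replicate 1.

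**Figure D4:**
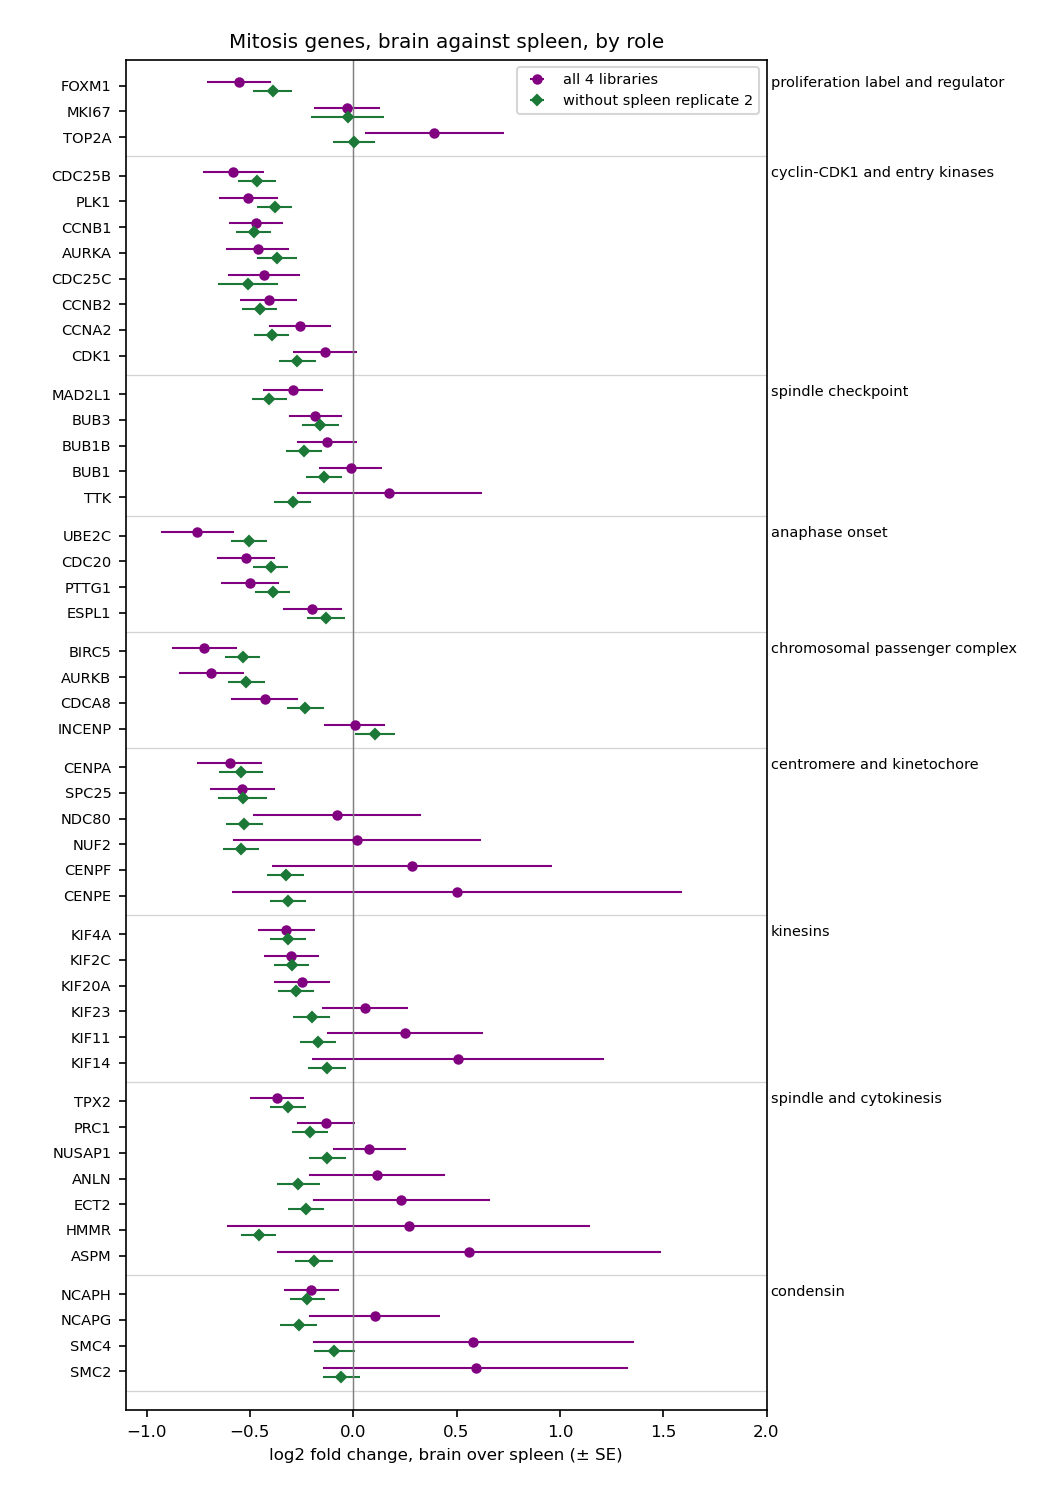
Log2 fold change of brain over spleen (x axis, ± SE) for the 47 mitosis genes, grouped by role on the y axis, with all 4 libraries (purple circles) and without spleen replicate 2 (green diamonds, a fit with a single spleen library). Entry and anaphase genes lie left of 0 in both fits, and genes with wide purple bars, such as CENPE, ASPM and SMC4, move from right of 0 to left of 0 when spleen replicate 2 is left out.

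Of the 5 spindle checkpoint genes, 4 had negative fold changes and the median was -0.13. BUB3, a subunit shared by the checkpoint complexes and the gene with the highest brain TPM of the whole set, had 345 and 356 CPM in the brain libraries and 395 and 402 CPM in the spleen libraries. The brain libraries were lower by a small step, with a log2 fold change of -0.18 ± 0.13 (adjusted p = 0.449). MAD2L1, which encodes the MAD2 protein that blocks CDC20, had 262 and 218 CPM in spleen replicates 1 and 2, against 201 and 191 CPM in the brain libraries, without overlap, and a log2 fold change of -0.29 ± 0.15 (adjusted p = 0.302). For BUB3 and MAD2L1 the log2 fold changes were -0.16 and -0.41 (MAD2L1 called lower) without spleen replicate 2 and -0.25 and -0.20 (BUB3 called lower) without spleen replicate 1. TTK, the kinase that starts checkpoint signalling, had 75.1 and 81.6 CPM in brain replicates 1 and 2 and 96.9 and 41.8 CPM in spleen replicates 1 and 2. Spleen replicate 2 was the lowest and spleen replicate 1 the highest library, so the log2 fold change of 0.18 ± 0.45 (adjusted p = 0.860) became -0.29 (adjusted p = 0.0276) without spleen replicate 2 and 0.86 (adjusted p = 1.5e-07) without spleen replicate 1.

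Centromere and kinetochore genes were divided by the spleen libraries. Their median log2 fold change was -0.030 with all libraries and -0.53 without spleen replicate 2, when all 6 were negative. Without spleen replicate 1 it was 0.75. CENPA, the histone H3 variant that marks the centromere, had 31.8 and 36.1 CPM in the brain libraries and 49.9 and 52.9 CPM in the spleen libraries, with the brain libraries below and no overlap. Its log2 fold change was -0.60 ± 0.16 (adjusted p = 0.0998), with -0.54 (adjusted p = 0.00115) without spleen replicate 2 and -0.69 (adjusted p = 1.3e-05) without spleen replicate 1. CENPE, the kinesin that carries chromosomes along the spindle, had 97.2 and 98.5 CPM in brain replicates 1 and 2 and 123 and 15.2 CPM in spleen replicates 1 and 2. The brain libraries lay close together, between the spleen libraries, which were 8.06-fold apart. The log2 fold change of CENPE was 0.50 ± 1.09 (adjusted p = 0.837) with all libraries and -0.32 (adjusted p = 0.0125) without spleen replicate 2. CENPF, a large protein of the outer kinetochore, had 399 and 118 CPM in spleen replicates 1 and 2, against 309 and 322 CPM in the brain libraries, and its log2 fold change went from 0.29 ± 0.68 (adjusted p = 0.852) to -0.33 (adjusted p = 0.0124). NUF2, a subunit of the complex that binds microtubules, had 84.8 and 86.4 CPM in the brain libraries and 126 and 43.0 CPM in the spleen libraries, and went from 0.020 ± 0.60 (adjusted p = 0.990) to -0.54 (adjusted p = 0.000102). Without spleen replicate 1 the values of CENPE, CENPF and NUF2 were 2.63, 1.37 and 0.94 (CENPE, CENPF and NUF2 called higher). In these 3 genes each sign rested on which spleen library was used.

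Kinesins, the motors that push and pull spindle microtubules, split the same way. KIF4A, which acts on chromosome arms and the central spindle, had 77.7 and 82.3 CPM in brain replicates 1 and 2 and 100.5 and 99.9 CPM in spleen replicates 1 and 2. Its groups did not overlap, with a log2 fold change of -0.32 ± 0.14 (adjusted p = 0.234). KIF11, the motor that pushes spindle poles apart, had 216 and 222 CPM in the brain libraries and 248 and 119 CPM in the spleen libraries, and KIF14, a motor of cytokinesis, had 69.6 and 73.8 CPM in the brain libraries and 78.9 and 21.9 CPM in the spleen libraries. In both, spleen replicate 1 was highest and spleen replicate 2 lowest. Their log2 fold changes were 0.25 ± 0.38 (adjusted p = 0.751) and 0.51 ± 0.71 (adjusted p = 0.736), and without spleen replicate 2 they were -0.17 (adjusted p = 0.195) and -0.13 (adjusted p = 0.405). Without spleen replicate 1 the values of KIF11 and KIF14 were 0.82 and 1.66 (KIF11 and KIF14 called higher). For KIF4A the log2 fold changes were -0.32 without spleen replicate 2 and -0.37 without spleen replicate 1. Those fits share the brain libraries and each rest on a single spleen library.

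Among the 7 spindle and cytokinesis genes the median log2 fold change was 0.11 with all libraries and -0.23 without spleen replicate 2. TPX2, which brings AURKA to the spindle, had 213 and 224 CPM in brain replicates 1 and 2 and 274 and 289.6 CPM in spleen replicates 1 and 2, with the brain libraries below and a log2 fold change of -0.37 ± 0.13 (adjusted p = 0.174). NUSAP1, which bundles spindle microtubules, had 332 and 239 CPM in spleen replicates 1 and 2, against 290.4 and 313 CPM in the brain libraries. Its brain libraries lay between the spleen libraries, with a log2 fold change of 0.078 ± 0.18 (adjusted p = 0.834). ASPM, a protein of spindle poles, had 195 and 219 CPM in the brain libraries and 238 and 42.4 CPM in the spleen libraries, and HMMR, another spindle protein, had 88.3 and 90.6 CPM in the brain libraries and 124 and 24.3 CPM in the spleen libraries. Spleen replicate 2 was 5.61-fold and 5.10-fold below spleen replicate 1 in these genes and was the lowest of the 4 libraries in both. The log2 fold changes were 0.56 ± 0.93 (adjusted p = 0.781) and 0.27 ± 0.88 (adjusted p = 0.896), or -0.19 (adjusted p = 0.183) and -0.46 (adjusted p = 0.000619) without spleen replicate 2. Without spleen replicate 1 the values of ASPM and HMMR were 2.24 and 1.83 (ASPM and HMMR called higher). For TPX2 and NUSAP1 the log2 fold changes were -0.32 and -0.13 (TPX2 called lower) without spleen replicate 2 and -0.46 and 0.28 (TPX2 called lower and NUSAP1 called higher) without spleen replicate 1.

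Condensin, the ring complex that compacts chromosomes, had a median log2 fold change of 0.34 with all libraries and -0.16 without spleen replicate 2, and 0 of its 4 genes were called with all libraries or without spleen replicate 2. SMC4, an ATPase subunit, had 638 and 682 CPM in brain replicates 1 and 2 and 709.7 and 173 CPM in spleen replicates 1 and 2. SMC2, the partner ATPase, had 274 and 283 CPM in the brain libraries and 292 and 76.9 CPM in the spleen libraries. The brain libraries and spleen replicate 1 stood together in both genes and spleen replicate 2 was 4.11-fold and 3.80-fold below spleen replicate 1. Their log2 fold changes were 0.58 ± 0.78 (adjusted p = 0.726) and 0.59 ± 0.74 (adjusted p = 0.705), and -0.092 (adjusted p = 0.600) and -0.057 (adjusted p = 0.724) without spleen replicate 2. NCAPG, a regulatory subunit in the lowest GC quintile, had 189.7 and 102 CPM in spleen replicates 1 and 2, against 147 and 166 CPM in the brain libraries, and NCAPH, the subunit that closes the ring and lies in a higher quintile, had 155 and 148 CPM in spleen replicates 1 and 2, against 130.2 and 133 CPM in the brain libraries. NCAPH alone of the complex had both brain libraries below both spleen libraries, with a log2 fold change of -0.20 ± 0.13 (adjusted p = 0.416), against 0.10 ± 0.32 (adjusted p = 0.885) for NCAPG. Without spleen replicate 1 the values of SMC4, SMC2, NCAPG and NCAPH were 1.88, 1.805, 0.57 and -0.22 (NCAPH called lower and SMC4, SMC2 and NCAPG called higher). NCAPG and NCAPH were -0.26 (adjusted p = 0.0516) and -0.22 (adjusted p = 0.0751) without spleen replicate 2.

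The 12 mitosis genes whose libraries are not given singly (CDC25C, BUB1, BUB1B, CDCA8, NDC80, SPC25, KIF2C, KIF20A, KIF23, ANLN, ECT2 and PRC1) had log2 fold changes from -0.54, for SPC25, to 0.23, for ECT2, with adjusted p between 0.121 and 0.971. Their mean levels ran from 17.9 to 188 CPM. In CDC25C, CDCA8, SPC25, KIF2C and KIF20A both brain libraries lay below both spleen libraries, a pattern shown by 26.7% of all tested genes. The groups of the other 7 overlapped.

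In SMC4 and ASPM the gap between the spleen libraries differed between kinds of transcript of the same gene. For SMC4, the estimated counts of coding transcripts were 13687 in spleen replicate 1 and 1099 in spleen replicate 2, a ratio of 12.5, while transcripts with a retained intron had 9319 and 3254, a ratio of 2.86. For ASPM the ratios were 14.0 and 2.71, and for HMMR, where they lay close, 6.67 and 5.43. In the brain libraries the coding transcripts of SMC4 had 17873 and 17307 estimated counts and those with a retained intron 5437 and 5802. Retained-intron transcripts thus made up a larger share of SMC4 in spleen replicate 2 than in any other library. Their share in spleen replicate 1 was also larger than in the brain libraries. For ASPM, transcripts with a retained intron had 1735 estimated counts in spleen replicate 1 and 880 and 1023 in the brain libraries. These ratios are of counts not scaled for library size, and the division among overlapping transcripts is an estimate made by the authors' quantification.

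Per length, the members differed widely in level. BUB3 had 287 and 311 TPM in the brain libraries and 297 and 281 TPM in the spleen libraries, PTTG1 had 274 and 276 TPM in the brain libraries and 340.4 and 351 TPM in the spleen libraries, and SMC4 had 247 and 291 TPM in the brain libraries and 300.5 and 52.9 TPM in the spleen libraries. At the other end, CDC25C, a phosphatase of the same family as CDC25B, had 13.1 and 14.9 TPM in the brain libraries and 17.9 and 11.95 TPM in the spleen libraries, and KIF14 had 13.6 and 15.1 TPM in the brain libraries and 15.1 and 3.84 TPM in the spleen libraries. The lowest value of any member in any library was 2.21 TPM, for CENPE in spleen replicate 2. BUB3 led in both brain libraries. PTTG1 and SMC4 were above BUB3 in spleen replicate 1, and UBE2C and PTTG1 were above BUB3 in spleen replicate 2.

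Promoters of these genes are known for paired elements: the cell cycle genes homology region (CHR), read by complexes that repress the genes in resting cells and activate them in dividing ones, and the CCAAT box, bound by NF-Y. Of the 47 genes, 40 had an entry in the RefSeq promoter table (GRCh38.p14), with FOXM1, AURKA, BUB3, TTK, UBE2C, BIRC5 and TPX2 not matched. The window ran from 250 bases before to 50 after the start, and TTTGAA for the CHR and CCAAT for the box were searched on both strands, so that TTCAAA and ATTGG count as well. The CHR letters occurred in 29 of 40 windows (72.5%) and in 15.4% of all 27305 promoters of the table. CCAAT occurred in 29 of 40 (72.5%) and in 35.7% of all, and both together in 22 of 40 (55.0%) and in 6.08% of all. In the shorter window from 100 bases before to 50 after the start, the shares were 65.0%, 60.0% and 42.5% of the mitosis genes and 6.91%, 22.0% and 1.72% of all promoters. The 150 bases before the start are shown for 5 genes of different roles, 5′ to 3′ on the gene's strand, with matches to either motif in capitals.
CCNB2 (chr15:59104996-59105145, plus strand): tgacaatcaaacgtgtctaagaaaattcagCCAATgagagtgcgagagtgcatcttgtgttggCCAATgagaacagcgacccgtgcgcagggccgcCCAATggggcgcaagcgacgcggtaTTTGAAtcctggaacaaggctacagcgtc
CDC20 (chr1:43358831-43358980, plus strand): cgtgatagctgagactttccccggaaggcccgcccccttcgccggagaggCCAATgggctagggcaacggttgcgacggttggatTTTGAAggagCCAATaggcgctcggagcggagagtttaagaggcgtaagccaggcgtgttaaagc
MKI67 (chr10:128126424-128126573, minus strand): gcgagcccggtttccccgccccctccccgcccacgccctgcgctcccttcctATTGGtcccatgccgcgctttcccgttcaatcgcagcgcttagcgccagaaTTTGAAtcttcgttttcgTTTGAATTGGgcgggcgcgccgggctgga
ESPL1 (chr12:53268149-53268298, plus strand): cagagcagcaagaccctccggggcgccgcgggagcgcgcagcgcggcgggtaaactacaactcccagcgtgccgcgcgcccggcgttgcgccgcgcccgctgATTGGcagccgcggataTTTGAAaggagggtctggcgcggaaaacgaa
ASPM (chr1:197146670-197146819, minus strand): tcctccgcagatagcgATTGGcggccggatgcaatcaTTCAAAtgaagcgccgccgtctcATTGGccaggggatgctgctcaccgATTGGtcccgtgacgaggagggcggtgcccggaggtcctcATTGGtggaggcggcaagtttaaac
CCNB2 carries 3 CCAAT boxes before its CHR match, CDC20 has its CHR match between 2 boxes, and in MKI67 the second CHR match overlaps a box by letters shared between them. ASPM has 4 boxes and a CHR match in this stretch, and ESPL1 has a box before its CHR match. The promoters shown all hold both motifs, while the whole windows of CENPE, CDC25B, CDC25C and KIF2C hold neither. Any link of the motifs to differences between the libraries was not tested. A match says only that the letters are present, and no binding was measured.

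The rest of the cell cycle machinery was described by 7 further lists. With all libraries and no block, 0 genes of any list passed the test. Of all tested genes, 0.387% were called lower and 1.63% higher in that fit. With the block, 2 genes of the anaphase-promoting complex list, 1 spindle gene and 3 genes of the G1 list were called lower, and 1 condensin and cohesin gene and 1 gene of the DREAM list were called higher. Of all genes, 3.37% were called lower and 7.48% higher with the block. Of 17 anaphase-promoting complex genes, 12 had negative fold changes (median -0.096), and ANAPC5, the subunit gene of highest mean CPM, had 187 and 192 CPM in the brain libraries and 206 and 209 CPM in the spleen libraries. Of 27 other centromere and kinetochore genes, 21 were negative (median -0.24), and 4 were called lower and 1 higher with the block. ZWINT, which helps recruit motors to the kinetochore, had 170.2 and 195 CPM in the brain libraries and 233 and 250.1 CPM in the spleen libraries, with no overlap and a log2 fold change of -0.41 ± 0.14 (adjusted p = 0.163). Of 12 other condensin and cohesin genes only 2 were negative (median 0.15), and SMC1A, a cohesin ATPase, had 567 and 580.4 CPM in the brain libraries and 546 and 559 CPM in the spleen libraries, with the brain libraries slightly above (log2 fold change 0.054 ± 0.13, adjusted p = 0.844). Of 17 other spindle genes, 9 were negative (median -0.030). NUMA1, a spindle pole protein, had 507 and 459 CPM in the brain libraries and 354 and 387 CPM in the spleen libraries. Both its brain libraries were higher (log2 fold change 0.38 ± 0.14, adjusted p = 0.178). Without spleen replicate 2 the medians of these lists were -0.15, -0.31, 0.054 and -0.21, in the order named. The negative fold changes then numbered 14, 26, 4 and 15. Without spleen replicate 1 the medians were -0.15, -0.15, 0.22 and 0.10.

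Earlier cell cycle steps and cell cycle regulators were covered by 3 of the lists. All 26 DNA replication genes were tested, and 24 had negative fold changes, with a median of -0.29. With the block 3 were called lower, beside 3.37% of all genes. UHRF1, the gene of highest mean CPM in the list and a factor that keeps DNA methylated through replication, had 1617 and 1913 CPM in the brain libraries and 1747 and 2039 CPM in the spleen libraries, with overlap. The G1 list held 17 genes: G1 cyclins, CDKs and CDK inhibitors, and also WEE1, PKMYT1 and CDC25A. Of its 16 tested genes, 11 were negative (median -0.28). CDK6, a kinase of the G1 phase, had 905 and 992 CPM in the brain libraries and 1052 and 729 CPM in the spleen libraries, with overlap. Of 15 genes of the DREAM and MuvB complexes and E2F regulators, which control mitosis genes, 8 were negative (median -0.15). RBBP4, a histone-binding subunit, had 438 and 458 CPM in the brain libraries and 539 and 571 CPM in the spleen libraries. Its groups did not overlap, with a log2 fold change of -0.31 ± 0.13 (adjusted p = 0.235). Without spleen replicate 2 the medians of the replication, G1 and DREAM lists were -0.24, -0.19 and -0.057. Without spleen replicate 1 they were -0.40, -0.40 and -0.21.

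When the trends of each library with GC content and transcript length were removed before the fit, 3 mitosis genes were called lower in brain (FOXM1, CDC25B and BIRC5) and 0 higher, beside 0.996% and 2.75% of all genes. The median log2 fold change became -0.27, with 33 of 47 negative. Genes moved in both directions. UBE2C, BIRC5 and AURKB, the lowest with all libraries, went from -0.76, -0.72 and -0.69 to -0.53, -0.65 and -0.46. Of these, UBE2C and AURKB were not called. MAD2L1 and KIF4A went from -0.29 and -0.32 to -0.49 and -0.44. CENPE stood at 0.31 ± 0.81 in that fit and SMC4 at 0.41 ± 0.53, still with wide errors. With the replicate block as well, 1 gene was called lower and 0 higher, beside 0.656% and 2.4% of all genes. With no filter on low counts, 10 of 47 were called lower and 0 higher, beside 2.47% and 3.67% of the 34540 genes then tested.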

How the data were processed

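Human SEM leukaemia cells from brain (2 libraries) and spleen (2) of xenografted mice were profiled by stranded, poly(A)-selected RNA sequencing, per the labels' protocols. The submitters' processing notes name kallisto 0.42.4, cutadapt 1.5, bcl2fastq 1.8.4 and DESeq2, and the builds GRCm38 and GRCh38. Settings and the annotation release were not stated in the sources used here. The deposited gene table holds the authors' estimated counts for 65217 human genes, rounded to whole numbers and not normalised. In the deposited transcript files the authors give estimated counts and TPM of 199596 human and 104229 mouse transcripts, and the TPM were rescaled here to the human transcripts. A deposited table of regularised log values was not used, and 2 value columns whose names match no sample were not used. Symbols came from GENCODE release 44, which held 86.4% of identifiers and at least 99.7% of the counts of each library.

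The comparison of brain and spleen used the robust quasi-likelihood test of edgeR 4.0.16 in R 4.3.3 with TMM factors and filterByExpr, and p-values were adjusted by Benjamini-Hochberg over 17075 genes, with genes under 0.05 called. A fold change is the log2 ratio of brain to spleen, with the SE that the test implies. The p-values measure the spread between these pooled libraries. The count test was applied to rounded estimates as if they were counts. The test code was tested on simulated data. Same-numbered libraries were taken to share an occasion by their replicate number, which is where the pairing comes from. Across genes, the correlation of their deviations from the group means was 0.027 (Pearson) and -0.015 (Spearman). GC quintiles were a split made after the data were seen. Alternatives were RLE factors, DESeq2 1.42.0, no filter or a filter at 1 CPM in all 4 libraries, the replicate block, removal of GC and length trends (splines with 5 degrees of freedom), gene sums of the transcript files, and leaving out each library.

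The mitosis genes and the lists were chosen with earlier results of these data known. Values of some marker genes are not reported here. The rule named called members, members that failed the filter (none did) and, in each of 9 role groups, the gene of highest mean CPM and those of highest and lowest fold change, and in each other list called genes or else the gene of highest mean CPM. Of the members, 24 were named by it, and 11 were singled out after their values were seen (MKI67, CCNA2, CCNB1, CCNB2, PLK1, AURKA, PTTG1, AURKB, NUF2, HMMR and NCAPG).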

Additional observations from a re-analysis of the deposited data

How the results depend on the processing

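Over all genes, 345 were called with the settings of the report, 941 by DESeq2, 2123 with no filter, 124 with at least 1 CPM in all 4 libraries, 1853 with the replicate block, 639 with the GC and length trends removed, 521 with trends removed and the block, and between 404 and 6807 when a library was left out. Of the mitosis genes, 0 were called with the settings of the report, 5 by DESeq2, 10 with no filter, 5 with the replicate block, 3 with the trends removed, 1 with trends removed and the block, and between 0 and 39 when a library was left out; 39 were called without spleen replicate 1, 27 without spleen replicate 2, and 0 without either brain library. All calls of mitosis genes given here other than 17 of those without spleen replicate 1 were lower in brain. Added to the settings of the report, the block changed no other call of a mitosis gene than the 5 given. Added to the edgeR fit with trends removed, it kept the call of BIRC5. FOXM1 and CDC25B were then no longer called (adjusted p = 0.0554 and 0.0701). The median log2 fold change of the mitosis genes was negative under every alternative run, between -0.30 and -0.14. Among the 35 genes given by library, the sign turned from the value of the report for INCENP with RLE factors (-0.025) and DESeq2 (-0.033), for NUF2 with DESeq2 (-0.0032), and for NCAPG with trends removed (-0.094, or -0.078 with the block). With a library left out, the log2 fold changes of these 35 whose sign turned ranged as follows: MKI67 -0.23 to 0.14, INCENP -0.12 to 0.10, TTK -0.29 to 0.86, CENPE -0.32 to 2.63, CENPF -0.33 to 1.37, NUF2 -0.54 to 0.94, KIF11 -0.17 to 0.82, KIF14 -0.13 to 1.66, HMMR -0.46 to 1.83, ASPM -0.19 to 2.24, NUSAP1 -0.13 to 0.28, NCAPG -0.26 to 0.57, SMC2 -0.057 to 1.805 and SMC4 -0.092 to 1.88. Among the other 12 mitosis genes, the sign turned for ANLN and KIF23 with trends removed (-0.11 and -0.064, or -0.089 and -0.053 with the block), for BUB1 at 1 CPM in all libraries (0.0097) and for NDC80 with the block (0.030). With a library left out it turned for ANLN (-0.0047 without brain replicate 2, -0.27 without spleen replicate 2), BUB1 (0.017 without brain replicate 1, 0.094 without spleen replicate 1), ECT2 (-0.23) and KIF23 (-0.20) without spleen replicate 2, and NDC80 without spleen replicate 1 (0.56). The causes were not tested.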

Other observations

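Outside the 47 genes, several cell division genes of the further lists had fold changes as far from 0. Of those lowest or highest in their lists, 6 are given by library here, picked after their values were seen. CENPX, a small histone-fold protein of the inner kinetochore, had 20.2 and 19.9 CPM in the brain libraries and 32.4 and 41.3 CPM in the spleen libraries, with a log2 fold change of -0.88 ± 0.18 (edgeR, adjusted p = 0.0573). UBE2S, the enzyme that extends ubiquitin chains for the anaphase-promoting complex after UBE2C has started them, had 136 and 144 CPM in the brain libraries and 197 and 259 CPM in the spleen libraries (-0.70 ± 0.17, adjusted p = 0.0803). TACC3, which stabilises spindle microtubules, had 143 and 155 CPM in the brain libraries and 209 and 236 CPM in the spleen libraries (-0.58 ± 0.14, adjusted p = 0.0841). CCND3, a D-type cyclin of the G1 phase, had 535 and 574 CPM in the brain libraries and 819 and 1087 CPM in the spleen libraries (-0.78 ± 0.17, adjusted p = 0.0661), and TK1, a nucleotide kinase of S phase, had 104 and 112 CPM in the brain libraries and 148 and 208 CPM in the spleen libraries (-0.72 ± 0.18, adjusted p = 0.0933). In each of these 5 genes both brain libraries were below both spleen libraries, and in each spleen replicate 2 was the highest library. Without it, their log2 fold changes were -0.68, -0.47, -0.48, -0.55 and -0.44 in the order named. Their transcript GC contents were 60.7%, 59.0%, 58.0%, 59.9% and 60.4%, and the part of composition in these fold changes was not tested. RB1, the retinoblastoma repressor of the same circuit, had 207 and 194 CPM in the brain libraries and 157 and 113 CPM in the spleen libraries. Both brain libraries lay above both spleen libraries (0.57 ± 0.18, adjusted p = 0.138, or 0.37 without spleen replicate 2). The transcript GC content of RB1 was 37.1%. The other genes highest in their lists were CCND2 (1.33 ± 0.57), KIF20B (0.68 ± 0.95), SMC3 (0.65 ± 0.64), CENPC (0.60 ± 0.68), FBXO5 (0.21 ± 0.28) and POLA1 (0.11 ± 0.14). CCND2 was below 1 CPM in every library. Without spleen replicate 2 these values were 2.11, -0.076, 0.067, -0.0078, -0.13 and 0.065. In the same order, the transcript GC contents were 45.7%, 34.0%, 37.3%, 37.3%, 38.3% and 42.9%. CDCA5 (-0.53 ± 0.17) and E2F1 (-0.43 ± 0.16) were the other genes lowest in their lists.

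Among 9350 genes at 10 CPM or more in spleen replicate 1, the 20 lowest in spleen replicate 2 against spleen replicate 1 held 19 of the lowest GC quintile and 1 mitosis gene, CENPE. The 20 also held ANGPT1, HMGN5 and ZNF92, and the following were picked from them after their values were seen. SGO2, which protects cohesin at the centromere, had 74.0 and 8.19 CPM in spleen replicates 1 and 2, KIF18A, a kinesin that trims spindle microtubules, had 48.1 and 6.97 CPM, and the centrosomal genes CEP290 and LRRCC1 had 18.5 and 2.06 CPM and 55.6 and 5.22 CPM. The brain libraries held these 4 genes at 64.7 and 67.8, 39.8 and 42.6, 20.6 and 20.7, and 44.1 and 45.1 CPM. PPIG and RB1CC1 were also among the 20, at 134 and 22.3 CPM and 102 and 14.3 CPM in the spleen libraries.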
